A study of Mus musculus with 384 samples.

Results

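The complement genes C1qa, C1qb, C1qc, C1ra, C1s1, C4b, C3, Cfb and C5ar1 were followed across single cells of mouse kidney sorted into 96-well plates. They were chosen by gene name and all 9 were found among the 40594 genes measured in both batches. The 3 C1q chains, C5ar1 and C4b had more reads in the CD45+ plates, C1s1 had more in the CD45- plates, C1ra was higher in the CD45- plates by an uneven margin, C3 went opposite ways in the batches, and Cfb was nearly silent.

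The wells came from kidneys of mice aged 8 weeks and from 2 sort gates, PDGFRB+CD45+ (here CD45+) and PDGFRB+CD45- (here CD45-), each with 1 plate in batch 1 and 1 in batch 2. PDGFRB is a growth factor receptor carried by pericytes and fibroblasts, and CD45, the product of Ptprc, marks leukocytes. The well names of all 4 plates carry "uuo", an abbreviation left unexplained in the labels, and neither strain, genotype nor any untreated kidney is labelled for these wells, so all comparisons are between gates. The labels name no animal, so each plate was 1 sample, no p-value was computed, and 2 batches are the whole replication. The series title asks what monocytes contribute to the myofibroblasts of fibrotic kidney.

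After 16 shallow wells were left out, 368 were kept, 92 and 90 in CD45+ batches 1 and 2, and 93 and 93 in CD45- batches 1 and 2. Reads on genes per plate lay between 26479862 and 31756482, and reads per kept well between 10497 and 1246070. Values below are given in the order batch 1, batch 2 within a gate. The sort label held for Ptprc, at 469 and 303 CPM (counts per 1000000 reads of the plate or well) in CD45+ plates, against 0.136 and 0.976 CPM in CD45- plates. It held less well for Pdgfrb, at 0.113 and 5.73 CPM in CD45+ plates, against 294 and 220 CPM in CD45- plates, so the gene of the sorted receptor was almost unread in CD45+ wells, and 1 well (number 68 of batch 2) held 92.6% of its batch 2 reads there. All 8 leukocyte markers and all 8 fibroblast markers were read in every plate. Summed, the leukocyte markers stood at 28608 and 24831 CPM in CD45+ plates, against 155 and 449 CPM in CD45- plates, and the fibroblast markers at 777 and 3210 CPM in CD45+ plates, against 20467 and 21592 CPM in CD45- plates. In clusters built without complement genes, 9 of the 92 CD45+ wells of batch 1 fell with fibroblast-like (4) or tubule epithelium-like (5) wells, and 5 of the 90 of batch 2 fell with endothelial-like (1) or tubule epithelium-like (4) wells.

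Complement is a set of plasma proteins that tag and lyse microbes and damaged cells. In the classical pathway, C1q, built from the A, B and C chains, recognises its target and carries the proteases C1r and C1s, which cleave C4 and C2. All routes meet at C3, whose cleavage the alternative pathway amplifies through factor B, and the released fragment C5a draws leukocytes through its receptor C5ar1. Much plasma complement comes from the liver, C1q is known as a product of macrophages and related myeloid cells, and fibroblasts are a known source of C1r and C1s.

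The genes lie in pairs and runs on the chromosomes: C1qb, C1qc and C1qa are neighbours on mouse chromosome 4, and C1ra and C1s1 are neighbours on chromosome 6. The promoters of a pair from each run are shown because their genes were read in opposite gates. Each is the RefSeq sequence of 300 bases (GRCm38.p6), from 250 bases before to 50 bases after the start of the gene, 5′ to 3′ on the strand of the gene: C1qb at chr4:136886151-136886450 (minus strand), C1qc at chr4:136892865-136893164 (minus), C1s1 at chr6:124542310-124542609 (minus, the first of 2 start sites listed) and C1ra at chr6:124512371-124512670 (plus).
C1qb: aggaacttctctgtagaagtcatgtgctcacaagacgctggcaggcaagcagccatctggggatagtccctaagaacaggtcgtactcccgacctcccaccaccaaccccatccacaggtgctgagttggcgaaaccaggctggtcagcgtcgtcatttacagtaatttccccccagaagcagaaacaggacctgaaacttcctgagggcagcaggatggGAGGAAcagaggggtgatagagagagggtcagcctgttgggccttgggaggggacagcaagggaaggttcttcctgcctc
C1qc: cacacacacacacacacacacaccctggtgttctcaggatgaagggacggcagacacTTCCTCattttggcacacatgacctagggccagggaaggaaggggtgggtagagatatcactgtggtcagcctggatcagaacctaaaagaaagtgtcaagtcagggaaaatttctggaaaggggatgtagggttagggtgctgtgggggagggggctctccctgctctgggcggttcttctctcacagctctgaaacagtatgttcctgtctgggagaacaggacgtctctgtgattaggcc
C1s1: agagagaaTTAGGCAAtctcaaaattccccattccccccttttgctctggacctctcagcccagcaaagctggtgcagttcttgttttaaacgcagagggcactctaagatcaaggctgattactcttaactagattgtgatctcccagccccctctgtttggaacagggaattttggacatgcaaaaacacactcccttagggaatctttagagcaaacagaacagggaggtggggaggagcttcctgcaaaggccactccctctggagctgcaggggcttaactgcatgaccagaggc
C1ra: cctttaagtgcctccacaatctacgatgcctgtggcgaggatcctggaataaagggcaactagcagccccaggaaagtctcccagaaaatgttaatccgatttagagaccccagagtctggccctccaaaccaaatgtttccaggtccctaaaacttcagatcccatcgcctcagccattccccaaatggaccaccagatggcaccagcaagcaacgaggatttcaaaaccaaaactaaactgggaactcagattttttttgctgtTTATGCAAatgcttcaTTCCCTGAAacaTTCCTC
Capitals mark matches, on either strand, to GAGGAA (the core of sites for the myeloid factor PU.1), TTGCNNAA (C/EBP) and TTCNNNGAA (the gamma-activated site). C1qb held GAGGAA starting at position -30 and C1qc held its reverse complement at -193. C1s1 held a C/EBP match at -242. C1ra held a C/EBP match at +16, a gamma-activated site match at +32 and the reverse complement of GAGGAA at +44. Such short words are common: among 32851 promoters of the same length, 28.28% held GAGGAA, 10.8% held TTGCNNAA and 8.3% held TTCNNNGAA, so the matches describe the letters and not a site in use.

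The comparison of gates is the log2 ratio of CD45+ over CD45- CPM taken batch by batch, with 1 CPM added to each, and a gene was called where both batches passed 4-fold in the same direction. Of 12882 genes of at least 1 CPM on average, 4.33% were called higher in CD45+ and 12.9% higher in CD45-. Of the 9 complement genes, 8 passed this minimum: 5 were called higher in CD45+ (C1qa, C1qb, C1qc, C4b and C5ar1), 1 higher in CD45- (C1s1) and 2 neither (C1ra and C3). The median log2 ratio over all genes was -0.39 in batch 1 and -0.56 in batch 2. With library scaling by trimmed means (TMM) it was -0.09 and -0.08. None of the 8 genes changed its call or its sign with TMM or DESeq2 size factors.

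All 3 C1q chains were far higher in the CD45+ plates. C1qb, the B chain, stood at 8521 and 13318 CPM in CD45+ plates, against 73.7 and 219 CPM in CD45- plates. C1qa, the A chain, stood at 2325 and 4291 CPM in CD45+ plates, against 21.4 and 72.4 CPM in CD45- plates. C1qc, the C chain, stood at 1441 and 2077 CPM in CD45+ plates, against 12.4 and 41.5 CPM in CD45- plates. For all 3 chains, both CD45+ plates lay above both CD45- plates. The log2 ratio was 6.83 and 5.92 for C1qb, 6.70 and 5.87 for C1qa, and 6.75 and 5.61 for C1qc. With every well given equal weight in place of summed reads, the batch 2 ratio was 3.20 for C1qa and 3.15 for C1qc, and in that average 1 shallow CD45- well with 28894 CPM of C1qa and 13562 CPM of C1qc, described below, counts as much as a deep one.

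C1q was read in nearly every CD45+ well, but not at a high level in all of them. C1qa and C1qb had a read in all 92 and all 90 CD45+ wells, and C1qc in 90 and 89. The CD45+ wells of the batches fell in different clusters. In batch 1, 79 of 92 fell in an unnamed cluster led by S100a9, Slpi, S100a8, Ccl4 and Apbb1ip. S100a8 and S100a9 were listed as neutrophil markers, but the cluster was also raised in the macrophage markers Adgre1, Fcgr1, Aif1 and Lyz2. It was not counted as raised in the other macrophage markers, Csf1r, Cd68 and Mpeg1, or in the other neutrophil markers, Csf3r and Retnlg. In batch 2, 85 of 90 fell in a macrophage-like cluster led by Pld4, Cd83, Ighm, Ccl5 and Clec4a1. The 7 macrophage markers, summed, had well medians of 8758 and 12604 CPM in CD45+ plates. Summed, the 4 neutrophil markers stood at 1672 and 388 CPM in CD45+ plates, with well medians of 72.9 and 14.2 CPM, against 0.784 and 1.67 CPM in CD45- plates, where Csf3r was at 0. C1qb stood at 10186 CPM in the unnamed batch 1 wells and at 14187 CPM in the macrophage-like batch 2 wells. The part of these other markers in the C1q levels was not tested. Per CD45+ well, C1qb ran from 113 CPM (median 6914) to 25664 CPM in batch 1 and from 195 CPM (median 10706) to 33914 CPM in batch 2. Per CD45- well, C1qb ran from 0 (median 8.48) to 2119 CPM in batch 1 and from 0 (median 19.2) to 18364 CPM in batch 2. The bulk of the wells were thus far apart, but the ranges overlapped at their ends. C1qa had well medians of 1453 and 3239 CPM in CD45+ plates, against 0 and 4.44 CPM in CD45- plates. C1qc had well medians of 366 and 1042 CPM in CD45+ plates, against 0 in both CD45- plates. Among deep wells (50000 reads or more), 76 of 76 and 78 of 78 CD45+ wells had at least 100 CPM of C1qb, against 11 of 79 and 13 of 82 CD45- wells. The CD45+ wells included the 9 and 5 that fell in fibroblast-, endothelial- or tubule epithelium-like clusters, at 133 to 5141 CPM of C1qb. This level alone therefore does not set leukocyte-like wells apart from the other wells of the gate. At 1000 CPM, 58 of 76 and 69 of 78 deep CD45+ wells passed for C1qb. For C1qa 39 and 54 passed that level, and for C1qc 30 and 42.

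**Figure D1:**
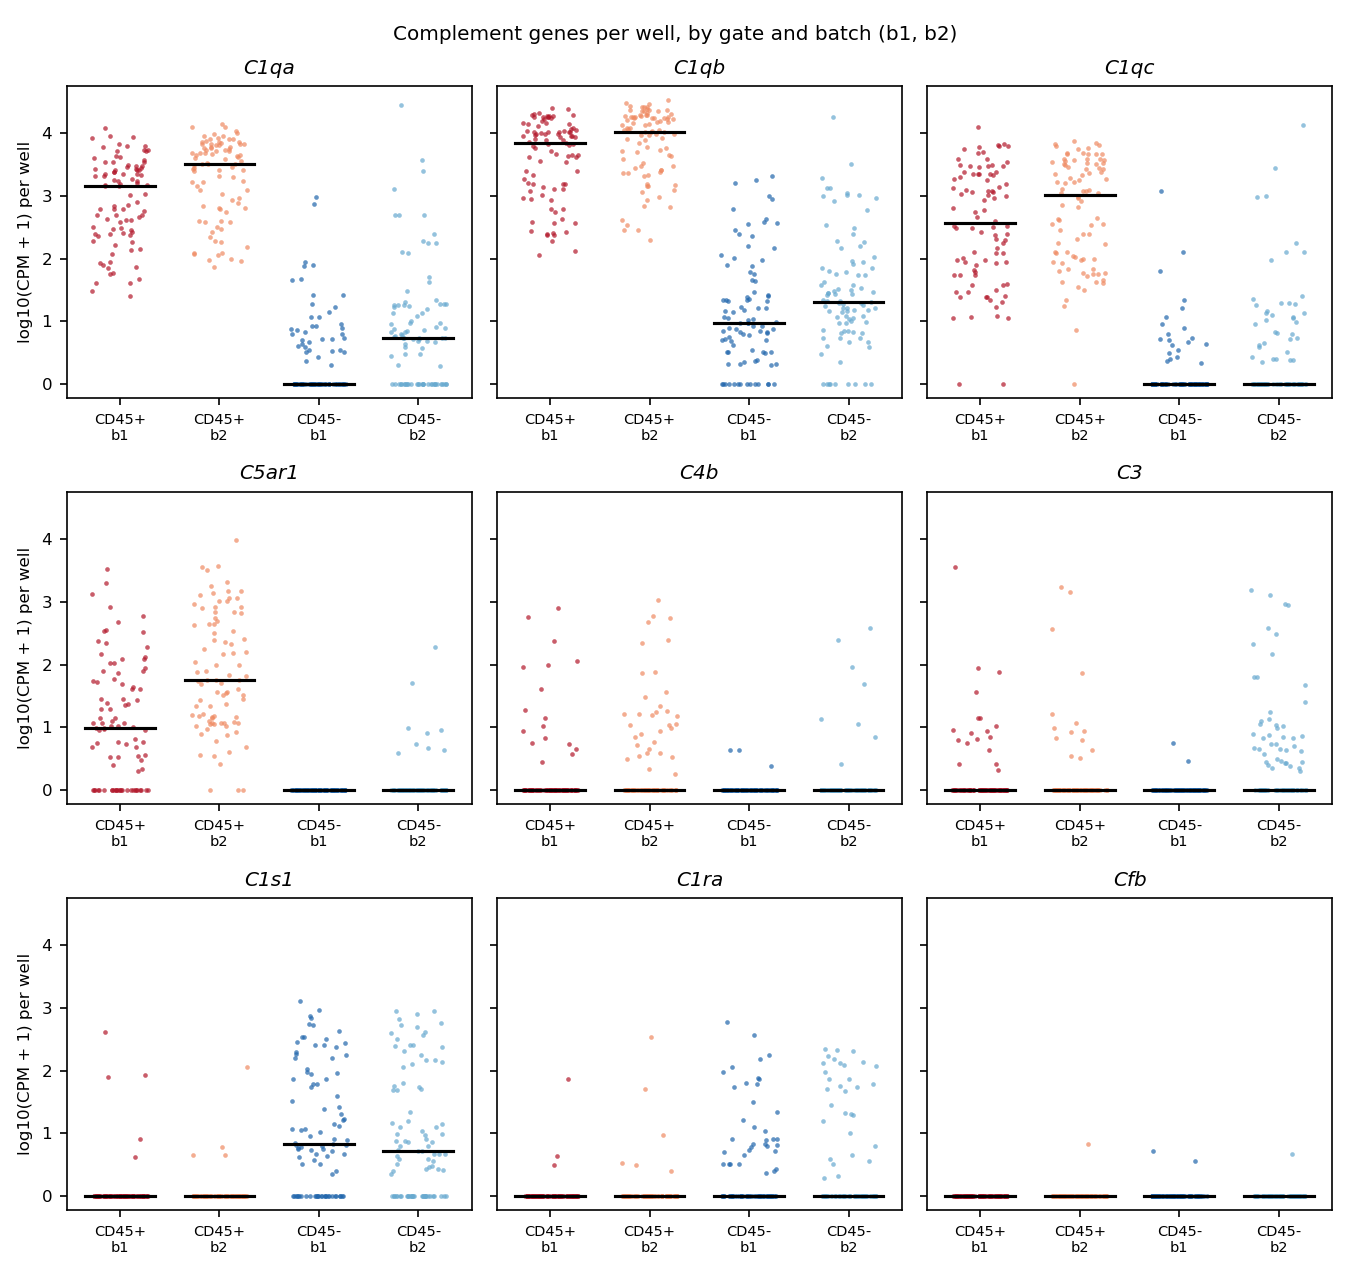
CPM of 9 complement genes in each kept well, as log10(CPM + 1) on the vertical axis, for CD45+ batches 1 and 2 (b1, b2) and CD45- batches 1 and 2, each point a well and each bar the median of the wells. C1qa, C1qb and C1qc fill the CD45+ plates (C1qb medians 6914 and 10706 CPM), C1s1 is spread over CD45- wells (medians 5.77 and 4.23 CPM), and C4b, C3 and C1ra sit in few wells of any plate.

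Within CD45+ wells, the B chain took most C1q reads, and the chain ratios varied widely from well to well. Over the wells with at least 100 C1q reads (82 and 88), the median share of C1qb was 70.6% and 68.6%, that of C1qa 18.3% and 21.2%, and that of C1qc 8.90% and 8.85%. The medians were thus close between batches. C1qb had the most reads of the 3 chains in 74 of 82 and 80 of 88 wells, and in 73 and 80 after division by the length of the longest coding transcript, on which scale the plates held 7832 and 12241 CPM per kilobase of C1qb, 2235 and 4126 of C1qa, and 1198 and 1726 of C1qc. All 3 chains were read in 81 of 82 and 88 of 88 wells.

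The log2 ratio of C1qa to C1qb reads had a median of -1.86 (SD 1.55 over 82 wells) and -1.66 (SD 1.32 over 88 wells). The log2 ratio of C1qc to C1qb reads had a median of -3.02 (SD 2.49) and -2.92 (SD 2.07). On this log scale the C chain varied more over all the wells. As shares of the C1q reads it did not: the SD was 15.2 and 7.41 percentage points for C1qc, 11.7 and 13.96 for C1qa, and 18.1 and 14.9 for C1qb. The share of C1qb ran from 6.75% to 98.2% in batch 1 and from 25.6% to 96.2% in batch 2, and the share of C1qc from 0 to 78.9% and from 0.0890% to 30.7%. A single chain held over 95% of the C1q reads in 5 and 3 wells. The spread did not shrink steadily with the number of C1q reads in the well: the SD of the C1qc ratio was 2.11 and 1.07 in wells of 100 to 1000 C1q reads, 3.26 and 2.86 from 1000 to 5000, and 2.07 and 2.09 above 5000. The chains nevertheless moved together across deep wells thinned to 50000 reads each, with Spearman correlations of 0.68 and 0.69 for C1qa with C1qb, 0.54 and 0.54 for C1qa with C1qc, and 0.58 and 0.60 for C1qb with C1qc (76 and 78 wells, which share a plate and a library pool).

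**Figure D2:**
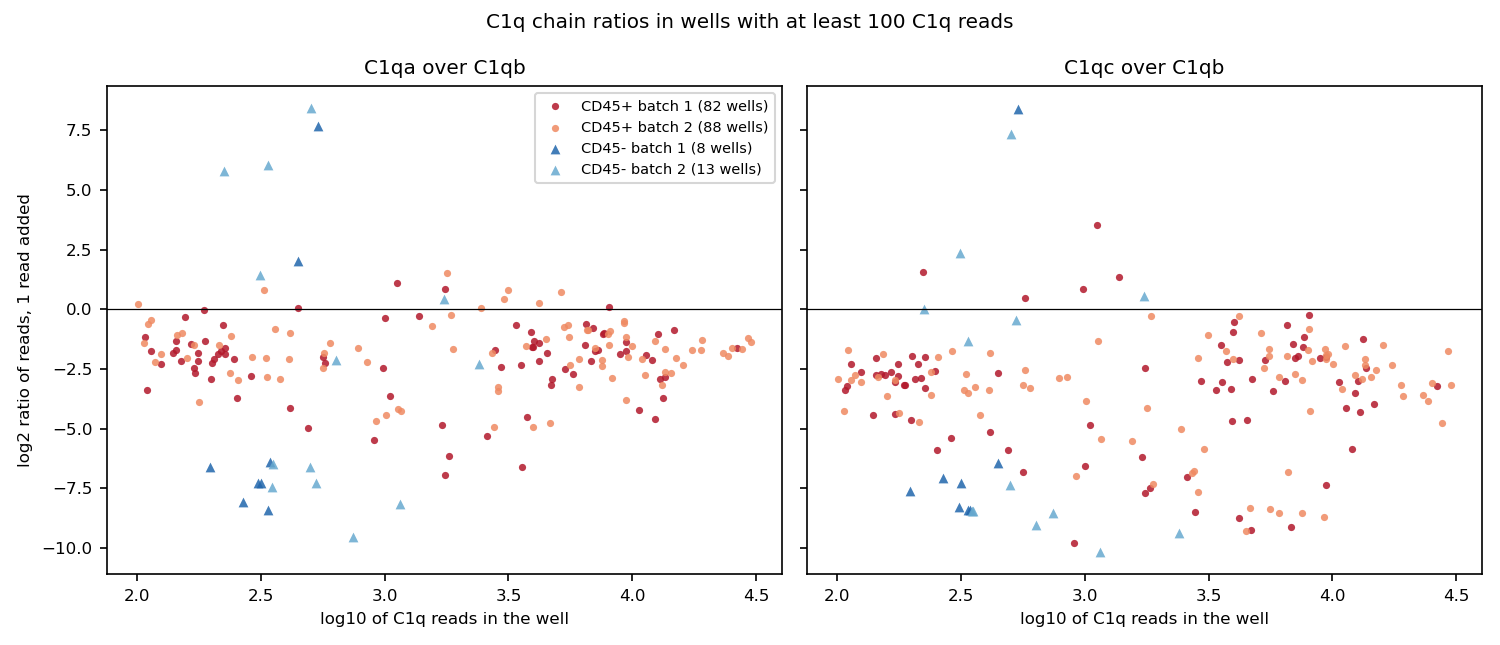
Log2 ratio of C1qa to C1qb reads (left) and of C1qc to C1qb reads (right), 1 read added to each, against log10 of the C1q reads of the well, for wells with at least 100 C1q reads: CD45+ batches 1 and 2 (82 and 88 wells, circles) and CD45- batches 1 and 2 (8 and 13 wells, triangles). Most CD45+ wells lie below 0 near the medians of -1.86 and -1.66 (left) and -3.02 and -2.92 (right), while CD45- wells scatter to both extremes.

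Summed over wells, C1qb made up 69.4% and 67.7% of the C1q reads in CD45+ plates, against 68.5% and 65.8% in CD45- plates, so the gates differed little in sum. Single CD45- wells were less even. In the 85 and 80 CD45- wells with fewer than 100 C1q reads, these came to 397 and 768 reads in all, of which C1qb held 78.1% and 70.7%. The other 8 and 13 wells held the rest, with a median C1qb share of 99.4% and 81.5%. A single chain made up over 95% of the C1q reads in 6 of 8 and 7 of 13 of them, and all 3 chains were read in 1 and 7. Well 66 of batch 1 held 90.9% of the C1qc reads of its plate, and the batch 1 ratio of C1qc was 9.40 without it. Well 10 of batch 1 held 57.2% of its C1qa reads, and the ratio of C1qa was 7.82 without it. These were single wells of their plate, and batch 2 had its own. There, well 33, with only 11871 reads, held 343 reads of C1qa, 0 of C1qb and 161 of C1qc, while well 51 held 411, 1994 and 2, and well 70 held 608, 457 and 677.

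Low C1q counts in a CD45- well followed the CD45+ well at the same plate position of the same batch. Over the 96 positions, the Spearman correlation of C1qb reads was 0.45 in batch 1 and 0.63 in batch 2 with the CD45+ plate of the same batch, against -0.07 and -0.02 with the CD45+ plate of the other batch. C1qa gave 0.45 and 0.49 within the batch, against -0.02 and 0.22 across batches. C1qc gave 0.40 and 0.56 within the batch, against 0.01 and -0.21 across batches. A gene outside the pathway did the same: Cd74, an abundant gene of antigen-presenting cells, gave 0.47 and 0.52 within the batch, against 0.07 and -0.03. Cfp, the properdin gene, gave less of a difference, at 0.19 and 0.32 within the batch, against 0.12 and 0.12 across batches. Per the labels' protocols, a barcode on the first read marks the well and a separate index marks the plate, and all plates were sequenced as a single pool. The C1q reads of the CD45- plates amounted to between 0.949% and 1.02% (3 chains, batch 1) and between 1.84% and 2.23% (batch 2) of those of the CD45+ plate of the same batch. Most of these were in the 8 and 13 wells with at least 100 C1q reads: the other wells held 0.122% and 0.137%. The part that shared positions have in the CD45- values was not tested. The 7 macrophage markers moved with C1q: summed, they stood at 10515 and 14952 CPM in CD45+ plates, against 74.7 and 152 CPM in CD45- plates.

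**Figure D3:**
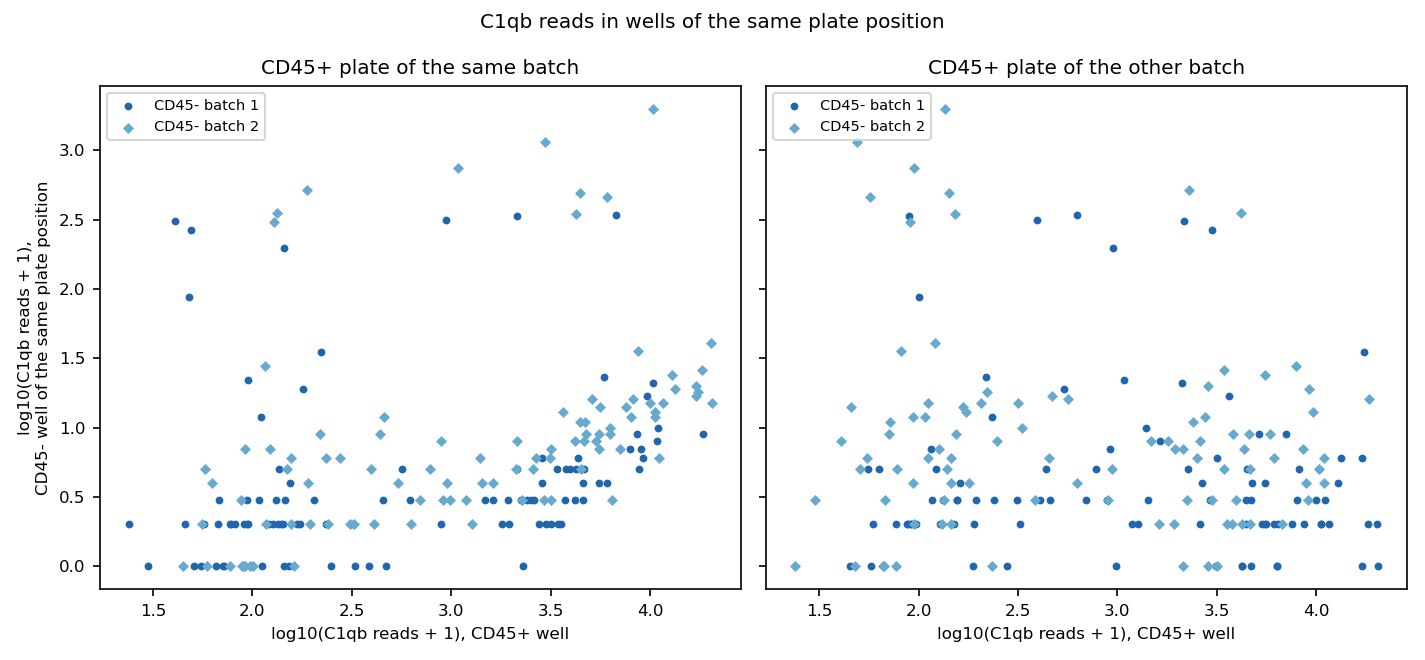
C1qb reads of each CD45- well, as log10(reads + 1), against C1qb reads of the CD45+ well at the same plate position in the same batch (left) and in the other batch (right), for CD45- batch 1 (circles) and batch 2 (diamonds), 96 positions each. The low counts climb with the CD45+ well on the left (Spearman 0.45 and 0.63) and not on the right (-0.07 and -0.02), with a group of CD45- wells above 100 reads standing apart in both.

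C5ar1, the receptor of C5a, was read in the CD45+ plates alone apart from 15 reads. It stood at 122 and 403 CPM in CD45+ plates, against 0 and 0.472 CPM in CD45- plates, with log2 ratios of 6.94 and 8.10. In batch 1, where the CD45- plate had no read, the CD45+ plate was at least 1192-fold higher, taking a floor of 3 reads for the empty plate. A read was found in 66 of 92 and 87 of 90 CD45+ wells, against 0 of 93 and 9 of 93 CD45- wells. After each well was thinned to 50000 reads, 51.3% and 74.4% of CD45+ wells had a read (exact 95% intervals 39.57% to 62.96% and 63.2% to 83.6%), against 0% and 1.22% of CD45- wells (exact upper bounds 4.56% and 6.61%). These intervals are over the wells of 1 plate each and do not cover spread between plates or animals. Per CD45+ well, C5ar1 ran from 0 (median 8.86) to 3388 CPM in batch 1 and from 0 (median 55.1) to 9938 CPM in batch 2, so it was far less even than C1q. All 14 and all 30 deep CD45+ wells with at least 100 CPM of C5ar1 also had at least 100 CPM of C1qa, in plates where 65 of 76 and 74 of 78 deep wells did.

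C4b, the mouse gene for the C1s substrate C4, was likewise higher in CD45+ plates. Its level was 34.5 and 58.7 CPM there, against 0.102 and 9.67 CPM in CD45- plates, which gave log2 ratios of 5.01 and 2.48. Its well medians were 0 in all 4 plates. A read was found in 17 and 34 CD45+ wells, against 3 and 8 CD45- wells, and only 3 and 6 deep CD45+ wells, against 0 and 2 deep CD45- wells, reached 100 CPM. All 3 and all 6 of those CD45+ wells had at least 100 CPM of C1qa. In batch 1 the CD45- plate held 3 reads, and the fold of CD45+ over CD45- was 338 (95% counting interval 115 to 1640). Few wells carried the gene: well 95 held 60.6% of the C4b reads of CD45+ batch 1 (14.1 CPM and a ratio of 3.78 without it), well 71 held 34.3% in CD45+ batch 2, and well 34 held 68.1% in CD45- batch 2 (3.14 CPM and a ratio of 3.85 without it). Without well 71, CD45+ batch 2 stood at 40.01 CPM, its ratio was 1.94, and C4b was no longer 4-fold higher in both batches. The near copy C4a had at most 3 reads in any plate.

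C3, the protein on which all routes meet, did not divide by gate. It stood at 40.9 and 22.4 CPM in CD45+ plates, and 0.0682 and 76.3 CPM in CD45- plates, so the log2 ratio was 5.29 in batch 1 and -1.73 in batch 2. In batch 1, well 39 held 96.8% of the CD45+ reads of C3 (3639 CPM in that well), and without it the plate stood at 1.34 CPM with a ratio of 1.13. That well had 243 CPM of C1qb and 33343 CPM of Lyz2, the lysozyme gene of myeloid cells. In batch 2, well 74 held 58.2% of the CD45+ reads, and without it the ratio was -2.89. The CD45- plates differed between themselves: 2 of 93 wells had a C3 read in batch 1 and 45 of 93 in batch 2, where the highest well, number 66, reached 1539 CPM and held 39.03% of the reads (47.5 CPM and a ratio of -1.05 without it). After thinning, 0% of deep CD45- wells had a C3 read in batch 1 (interval over wells to 4.56%) and 18.3% in batch 2 (interval over wells 10.6% to 28.4%).

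Cfb, which encodes factor B, the partner of C3 in the alternative pathway, had 0 and 1 reads in CD45+ plates, against 2 and 1 reads in CD45- plates. It was below the minimum of 1 CPM and was not compared. In the reference annotation (GENCODE M21), 79.5% of its exon bases are shared on the same strand with a second gene, Gm20547, which had 0 reads in all 4 plates. Its count is therefore uncertain, and what the shared bases did to it was not tested.

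C1s1 and C1ra, the proteases that C1q carries, were read in the CD45- plates, opposite to C1q itself. C1s1 stood at 11.6 and 5.17 CPM in CD45+ plates, against 117 and 102 CPM in CD45- plates (log2 ratios -3.23 and -4.06). A read was found in 5 and 4 CD45+ wells, against 65 and 63 CD45- wells. Single wells made up the CD45+ level: well 71 of batch 1 held 85.9% and well 18 of batch 2 held 97.3% of the reads, and without them the plates stood at 1.66 and 0.147 CPM and the ratios were -5.47 and -6.48. Per CD45- well, C1s1 ran from 0 (median 5.77) to 1308 CPM in batch 1 and from 0 (median 4.23) to 885 CPM in batch 2. Only 19 of 79 and 18 of 82 deep CD45- wells reached 100 CPM, against 1 of 76 and 1 of 78 deep CD45+ wells, so C1s1 reached that level in a minority of CD45- wells.

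C1ra stood at 0.113 and 7.45 CPM in CD45+ plates, against 22.4 and 29.9 CPM in CD45- plates. Its log2 ratio was -4.39 in batch 1, where the CD45- plate was 198-fold higher than the 3 reads of the CD45+ plate (95% counting interval 67.4 to 962), and -1.87 in batch 2, short of 4-fold. Well 15 held 67.9% of the C1ra reads of CD45+ batch 2, and without it that plate stood at 2.42 CPM and the ratio was -3.18, past 4-fold. Leaving out well 18 of the same plate also took C1ra past 4-fold. A read was found in 3 and 6 CD45+ wells, against 36 and 31 CD45- wells. C1s1 shares 18.4% of its exon bases with an antisense gene, Gm16567, which had 0 reads, and the near copies C1rb and C1s2 had at most 2 reads in any plate.

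Serping1, the C1 inhibitor that stops C1r and C1s, was on the same side as the proteases (292 and 238 CPM in CD45+ plates, against 1721 and 2923 CPM in CD45- plates), and most of its reads in CD45+ batch 1 sat in wells that stood apart. The 9 CD45+ wells that clustered with fibroblast-like or tubule epithelium-like wells held 96.1% of the Serping1 reads of that plate. Without them CD45+ batch 1 stood at 14.01 CPM of Serping1, and its log2 ratio was -6.84 in place of -2.56. In CD45+ batch 2, the 5 wells that clustered with endothelial-like or tubule epithelium-like wells held 0.163% of the Serping1 reads. The 4 fibroblast-like wells of CD45+ batch 1 had 643 to 4351 CPM of Col1a1 (collagen), 2.37 to 12.7 CPM of Ptprc, 191 to 278 CPM of C1qb and 2557 to 4442 CPM of Serping1, and no read of Pdgfrb. In batch 2, well 18 had 23586 CPM of Col1a1 beside 2388 CPM of C1qb, and held 87.1% of the Serping1 reads of its plate (32.2 CPM without it). Serping1 in CD45+ wells gave Spearman correlations of 0.24 and 0.39 with the CD45- well at the same position of the same batch, against 0.11 and 0.09 across batches, and Col1a1 gave 0.49 and 0.36, against 0.12 and 0.13. C1s1 gave -0.03 and 0.17, against -0.001 and -0.11. Whether any of these wells held more than 1 cell, or reads of another plate, was not tested.

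Within the CD45- plates, the proteases and the C1 inhibitor were read almost entirely in fibroblast-like wells. The clusters, built without any complement gene, gave 49 and 62 fibroblast-like, 28 and 23 endothelial-like, 1 and 7 tubule epithelium-like and 15 and 1 unnamed, mostly shallow, CD45- wells. Fibroblast-like wells were in a pair of clusters, one mostly of batch 2 (61 wells, leading genes Ren1, Cpxm2, Fmod, Frzb and Nkd2) and one mostly of batch 1 (54 wells, leading genes Col18a1, Nupr1, Mgp, Ltbp4 and Fbln1), so kind of well and batch cannot be told apart between them. Both were also raised in the smooth muscle markers Acta2 and Tagln. The first was raised in the mesangial markers Serpine2 and Des, and the second in the pericyte marker Ndufa4l2. Well 66 of batch 1, in the second, had 13508 CPM of Acta2 and 6075 CPM of Rgs5, a pericyte marker, beside 184 CPM of Col1a1. The name therefore does not set fibroblasts apart from these other kinds of cell. Fibroblast-like wells held 68.4% and 73.7% of all reads of the CD45- plates. They held 97.1% and 96.4% of the C1s1 reads, 97.3% and 99.5% of the C1ra reads and 95.9% and 97.8% of the Serping1 reads.

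C1s1 stood at 166 and 133 CPM in fibroblast-like wells, against 10.9 and 18.7 CPM in endothelial-like wells. C1ra stood at 31.9 and 40.4 CPM in fibroblast-like wells, against 1.76 and 0.848 CPM in endothelial-like wells. Both were therefore at least 4-fold higher in fibroblast-like wells in both batches, with log2 ratios of 3.82 and 2.77 for C1s1 and 3.57 and 4.49 for C1ra. Deep wells with at least 100 CPM of Col1a1 were also compared with those with at least 100 CPM of Pecam1, an endothelial gene. The ratios of C1s1 were then 1.91 and 2.47, so C1s1 missed 4-fold in batch 1. These sets overlapped: 73 of 79 and 76 of 82 deep wells passed for Col1a1, and 10 and 19 for Pecam1. With 1000 CPM of Col1a1 (42 and 39 wells), a level not planned beforehand, the ratios of C1s1 were 2.18 and 2.98. Single wells held much of the endothelial-like C1s1: the ratio was 4.67 without well 7 of batch 1 and 4.60 without well 18 of batch 2. C3 and C4b were read in such wells almost only in batch 2: fibroblast-like wells held 99.1% of the C3 reads (103 CPM, against 3.05 CPM in endothelial-like wells) and 100% of the C4b reads (13.1 CPM, against 0). The wells behind these values were few and not all rich in collagen. Well 66 held 39.03% of the C3 reads of the plate, and without it the fibroblast-like wells stood at 63.9 CPM. Well 59 held 25.5% (78.5 CPM without it), although it had 108 CPM of Col1a1, 48.5 CPM of Dcn and 37.9 CPM of Serping1 beside 628 CPM of Cdh16, a marker of tubule epithelium. Without well 34, which held 68.1% of the C4b reads, the fibroblast-like wells stood at 4.29 CPM of C4b. C1qb stood at 6.78 and 208 CPM in fibroblast-like wells, against 230 and 348 CPM in endothelial-like wells. Fibroblast-like wells held 6.29% and 69.9% of the C1qb reads of CD45- plates, and endothelial-like wells 78.3% and 29.5%. In batch 2 the order of the levels rested on endothelial-like well 18: without it those wells stood at 163 CPM, below the 208 CPM of the fibroblast-like wells. The fibroblast-like level was 123 CPM without well 51, which had 18364 CPM of C1qb. That well fell in a fibroblast-like cluster, although it had 15058 CPM of Lyz2 and 35964 CPM of Cd74 beside 1142 CPM of Col1a1.

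**Figure D4:**
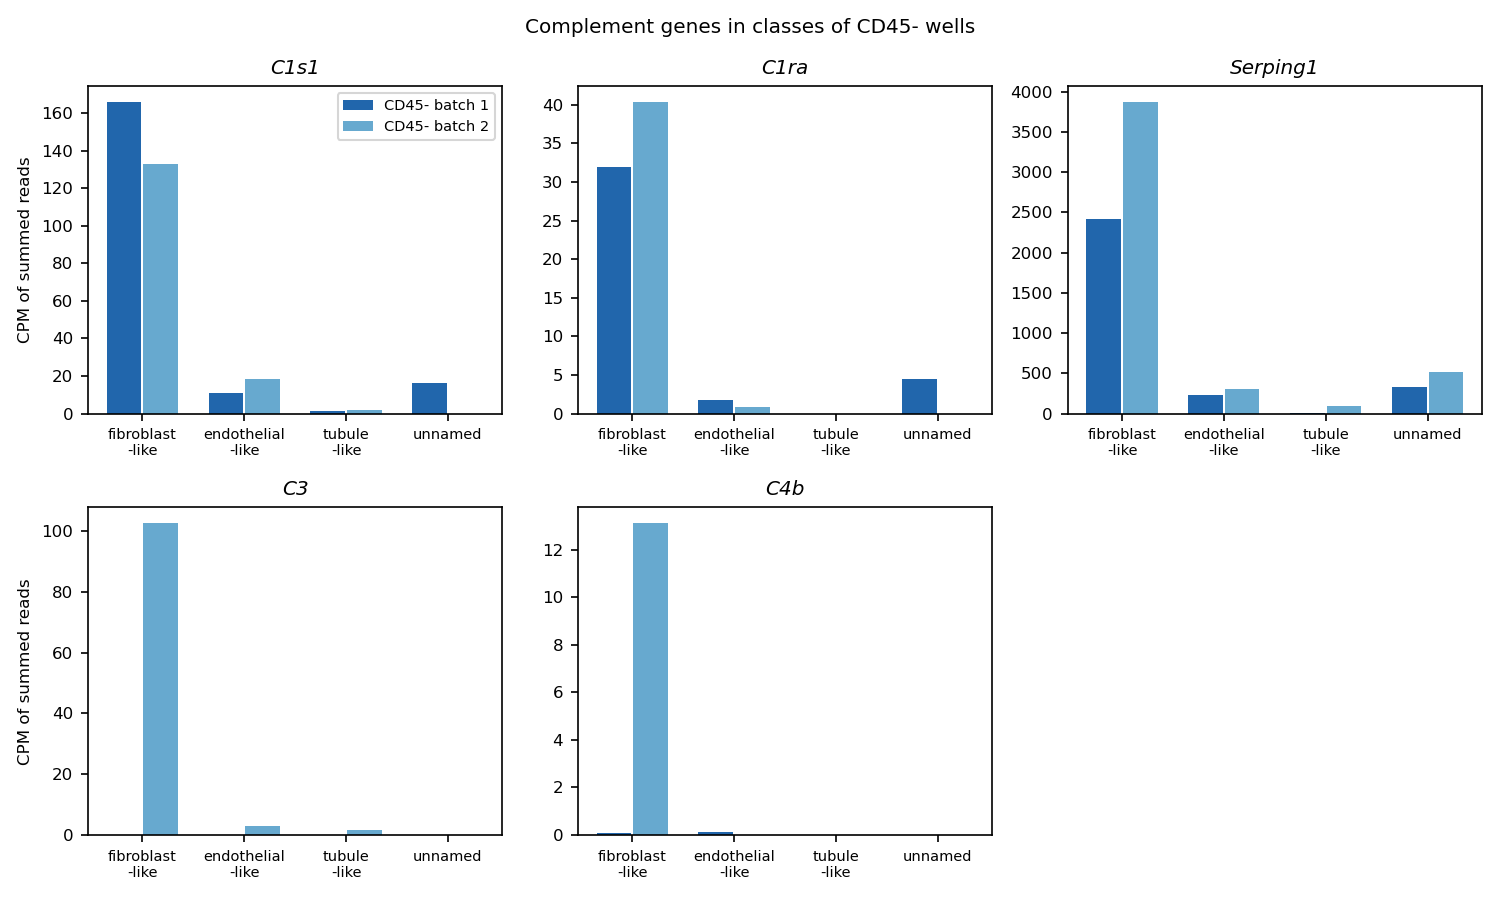
CPM of summed reads (bars, from 0) of C1s1, C1ra, Serping1, C3 and C4b in fibroblast-like, endothelial-like, tubule epithelium-like and unnamed CD45- wells, batch 1 dark and batch 2 light, each panel on its own scale. The first 3 genes are highest in fibroblast-like wells of both batches (C1s1 166 and 133 CPM), while C3 and C4b are seen almost only in batch 2 (103 and 13.1 CPM).

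The genes were high in overlapping but unequal sets of CD45- wells. Among deep CD45- wells, 63 of 79 and 62 of 82 had at least 100 CPM of Serping1, 19 and 18 of C1s1, and 5 and 10 of C1ra. All C1s1-high wells of both batches (19 and 18) and all C1ra-high wells (5 and 10) were also Serping1-high, which is 19 of 63 and 18 of 62 Serping1-high wells for C1s1 and 5 of 63 and 10 of 62 for C1ra. C1ra and C1s1 were both high in 3 and 7 wells, which is 3 of 5 and 7 of 10 C1ra-high wells and 3 of 19 and 7 of 18 C1s1-high wells. Of all deep CD45- wells, 79.75% and 75.61% were Serping1-high, and 24.05% and 21.95% were C1s1-high. The shares alone therefore do not rank these overlaps. Across the deep wells thinned to the same depth, the Spearman correlation was 0.44 and 0.43 for C1s1 with Serping1, and 0.24 and 0.34 for C1ra with C1s1 (79 and 82 wells of 1 plate each). Fibroblast-like and other wells both enter these values.

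Few deep CD45- wells were high in C3 or C4b, and all of them were of batch 2. Deep wells 38, 39, 59, 66 and 96 had 889, 1307, 937, 1539 and 307 CPM of C3, and 3 of these 5 were also high in C1s1, 2 in C1ra and 4 in Serping1. Wells 11 and 34 had 243 and 386 CPM of C4b. No deep well was high in both C3 and C4b, but with 5 and 2 such wells among 82 an overlap could hardly be seen. At 10 CPM, 10 wells passed for C3, 4 for C4b and 1 for both. Well 11 also had 1347 CPM of C1qb, and well 34 had 40289 CPM of Col1a1.

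A wider list of 50 complement genes was compared by role. Of its 30 genes of at least 1 CPM, 11 were called higher in CD45+ and 6 higher in CD45-, beside the 4.33% and 12.9% of all genes called in these directions, with a median log2 ratio of 0.36 and -0.04 beside the -0.39 and -0.56 over all genes, also with genes unread in a plate set to their bound. Receptors were mostly on the CD45+ side, 6 of 7: beside C5ar1, C3ar1, the C3a receptor, stood at 165 and 334 CPM in CD45+ plates, against 4.84 and 14.4 CPM in CD45- plates, and C5ar2, the other C5a receptor, at 18.3 and 27.8 CPM, with 0 in both CD45- plates (at least 179-fold and 294-fold higher). Itgb2, the shared beta chain of complement receptors 3 and 4, stood at 78.2 and 136 CPM in CD45+ plates, against 0 and 0.0945 CPM in CD45- plates. Its partners were also higher in CD45+: Itgax stood at 53.6 and 47.1 CPM in CD45+ plates, against 0 and 0.0945 CPM in CD45- plates. Single wells held much of it. Without well 49 of CD45+ batch 1 and well 65 of CD45+ batch 2, Itgax stood at 21.6 and 7.38 CPM (ratios 4.50 and 2.94). Itgam had 60.1 and 87.2 CPM in CD45+ plates and 1.43 and 1.64 CPM in CD45- plates, although 68.7% of its exon bases overlap another annotated gene. Cd93, once described as a C1q receptor, was read in both gates, at 195 and 408 CPM in CD45+ plates, against 139 and 138 CPM in CD45- plates.

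Among the other genes of the classical, lectin and alternative pathways, properdin (Cfp), which steadies the alternative pathway's enzyme, was on the CD45+ side. It stood at 414 and 626 CPM in CD45+ plates, against 12.7 and 13.6 CPM in CD45- plates. Colec12 and Colec11 were the only collectins of the list to pass the minimum of 1 CPM, and both were called higher in CD45-. Colec12 stood at 1.32 and 6.18 CPM in CD45+ plates, against 110 and 126 CPM in CD45- plates. Colec11 stood at 0 and 0.0351 CPM in CD45+ plates, against 6.75 and 72.3 CPM in CD45- plates, and its batch 1 ratio of -2.95 was -1.56 without CD45- well 39. C2, the partner of C4, had 2.79 and 27.1 CPM in CD45+ plates, against 39.4 and 50.7 CPM in CD45- plates, and was not called. Its batch 2 ratio of -0.88 hung on single wells. It was -4.26 without CD45+ well 17 (1.69 CPM left) and -0.08 without CD45- well 96. C2 shares 46.9% of its exon bases with other annotated genes.

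Of the terminal components, C7 stood at 0 and 0.0351 CPM in CD45+ plates, against 53.4 and 15.5 CPM in CD45- plates, but its batch 2 ratio of -4.00 was -0.52 without CD45- well 87. C6 was read almost only in CD45+ batch 2, at 0 and 26.9 CPM in CD45+ plates, against 0.0682 and 0.0945 CPM in CD45- plates, and its batch 2 ratio of 4.67 was 0.79 without well 11. Of the inhibitors, Serping1, described above, had ratios of -2.56 and -3.61 and was called higher in CD45-. Cd55, a membrane inhibitor that takes apart the C3 convertase, was also called higher in CD45- (ratios -3.81 and -4.20). Single wells made up much of its CD45- level of 13.6 and 19.4 CPM. Without well 46 of batch 1 and well 85 of batch 2, those plates stood at 4.83 and 3.50 CPM (ratios -2.49 and -2.03). Clusterin (Clu), Cr1l and Cd59a were called in neither direction. Clu stood at 1282 and 548 CPM in CD45+ plates, against 1088 and 1202 CPM in CD45- plates. Cr1l stood at 17.98 and 51.3 CPM in CD45+ plates, against 98.3 and 106 CPM in CD45- plates, and Cd59a had 77.4 and 54.04 CPM in CD45+ plates and 125 and 87.5 CPM in CD45- plates.

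**Figure D5:**
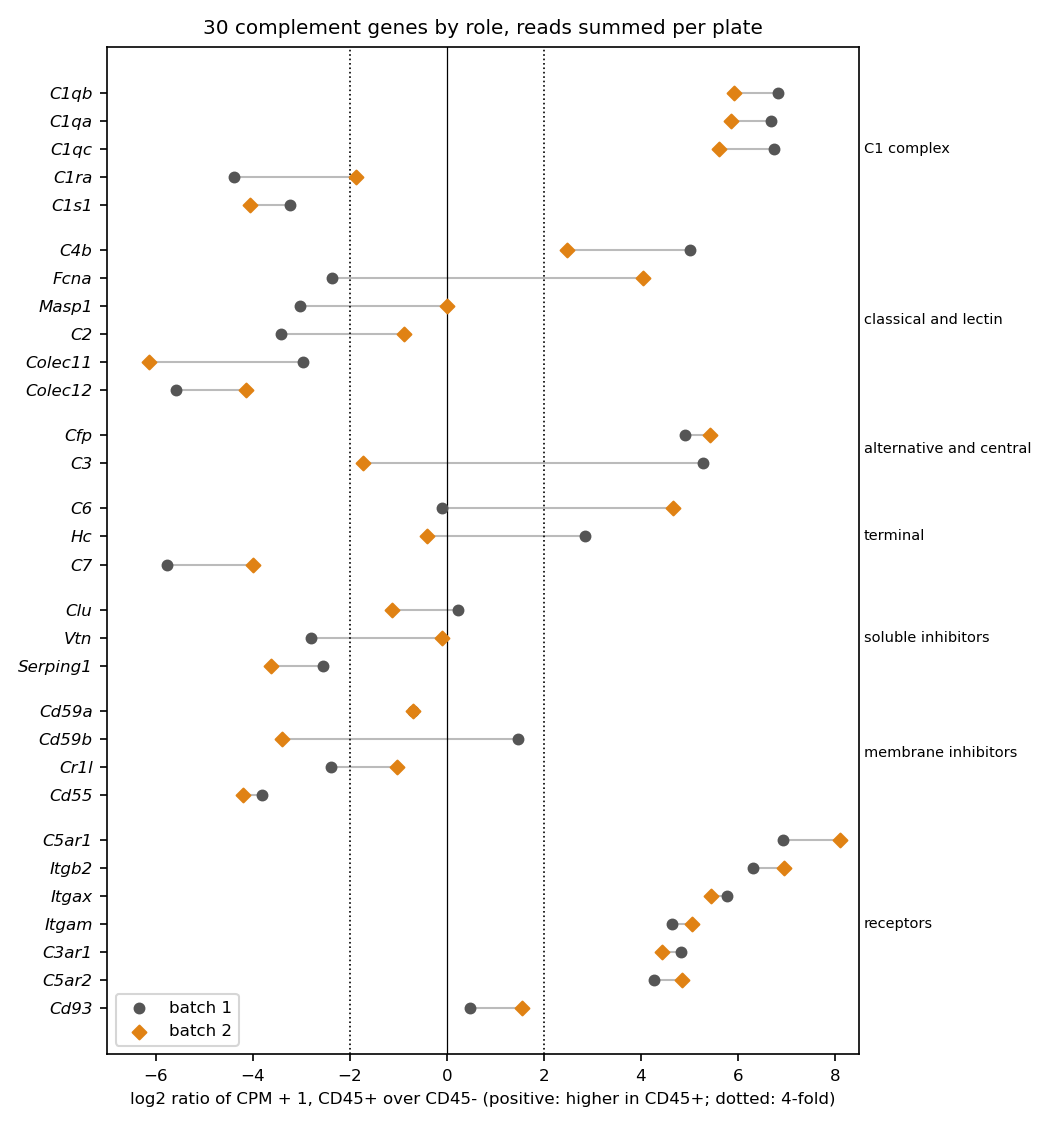
Log2 ratio of CPM + 1, CD45+ over CD45- (horizontal axis, positive values higher in CD45+), of the 30 complement genes of at least 1 CPM, grouped by role, with batch 1 as circles, batch 2 as diamonds and dotted lines at 4-fold. Receptors and the C1q chains lie to the right (C1qb 6.83 and 5.92), C1s1, C7, Cd55 and Serping1 lie to the left, and C3 has its batches on opposite sides of 0 (5.29 and -1.73).

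The genes whose levels followed these patterns most closely were sought within a gate, among genes of at least 20 CPM. In CD45+ wells, summed C1q ran closest with Apoe, the apolipoprotein (Spearman 0.72 and 0.69 over 76 and 78 deep wells), then Ctss, a lysosomal protease (0.67 and 0.49), Cd14 (0.47 and 0.50), Lyz2 (0.50 and 0.47) and Fcer1g (0.56 and 0.46). In CD45- wells, C1s1 ran closest with its inhibitor Serping1 (0.44 and 0.43 over 79 and 82 deep wells), then Pcolce, an enhancer of collagen processing (0.38 and 0.37), Nr2f2 (0.38 and 0.34), Bgn, a matrix proteoglycan (0.36 and 0.33), and Cryab (0.42 and 0.32). These were the first 5 of 2300 and 3684 genes compared. C3 and C4b were read in too few thinned CD45- wells (0 and 15, 0 and 2) for such a search.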

How the data were processed

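Sorted PDGFRB+ kidney cells of mouse were amplified in single wells with a Clontech SMARTer kit, per the labels' protocols. The deposited values are the authors' raw counts of reads for each gene in each well. STAR 3.0.4, Subread and featureCounts 1.4.5 are named in the submitters' processing notes, and the build, annotation and strand setting are not given in the sources used here. No molecular identifiers are stated, so counts are reads, and intervals on folds cover counting error only. Intervals on shares of wells take the wells of a plate as independent draws. Neither kind covers spread between plates or animals. Repeated gene lines (598 and 595, with 2.39% and 2.42% of reads) were dropped. Wells with at least 10000 reads and 500 genes were kept, which left out 16. CPM scale the reads of a well, or the summed reads of a plate, to the same total. A well with at least 50000 reads is called deep, and thinning drew 50000 reads per deep well. Wells are numbered in listed order, which is only a name. Well positions were taken from the labels.

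The tools were Python 3.11.15, pandas 2.3.3, scipy 1.17.1, scanpy 1.11.5, leidenalg 0.10.2 and, for scaling factors alone, edgeR 4.0.16 and DESeq2 1.42.0 in R 4.3.3. Wells were clustered (2000 variable genes without complement genes, 20 components, 15 neighbours, Leiden resolution 1). Classes were named from marker lists, with leading genes required to reach 100 CPM in 25% of a cluster's wells, a rule changed after seeing the clusters. It named a cluster of CD45+ wells that the first rule left unnamed and moved no name of a CD45- cluster. No doublet caller was run. The ratio and chain calculations were tested on simulated data.

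The genes and lists were chosen with earlier results of these data known. 1 further gene of the wider list is not reported here. Beside the 9 genes, list members were named where they reached 20 CPM in a plate, together with the 5 genes most like summed C1q or C1s1 and the leading genes of clusters. Others were named after their values were seen (Cd55, Cd74, Gm16567, Gm20547 and paralogs, Acta2, Adgre1, Aif1, Cd68, Cdh16, Col1a1, Csf1r, Csf3r, Dcn, Des, Fcgr1, Lyz2, Mpeg1, Ndufa4l2, Pecam1, Retnlg, Rgs5, Serpine2 and Tagln).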

Additional observations from a re-analysis of the deposited data

Results flagged for a closer look

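C1q reads were also found in the 16 wells left out for low depth, which no comparison used. The 4 wells left out of CD45+ batch 1 held 98 reads of C1qa, 383 of C1qb and 185 of C1qc. The 6 wells left out of CD45+ batch 2 held 180 reads of C1qa, 701 of C1qb and 62 of C1qc. The 3 wells left out of CD45- batch 1 held 5 reads of C1qb, and the 3 left out of CD45- batch 2 held 8 reads of C1qa, 33 of C1qb and 5 of C1qc. The left-out CD45+ wells had between 6324 and 9740 reads each, below the 10000 required of a kept well.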

How the results depend on the processing

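Over the alternatives tried, 79 summary values moved little, 13 moved and 0 reversed, while of the gate ratios of single genes 106 stayed within their counting interval, 128 moved beyond it and 0 of called genes reversed. Of the 9 genes, 5 were higher in CD45+ and 1 (C1s1) higher in CD45-. With each well left out in turn, 4 to 5 were higher in CD45+ and 1 to 2 in CD45- (C4b lost without well 71 of CD45+ batch 2, C1ra gained without well 15 or 18 of that plate). With 10 CPM added, C4b was lost, the wider list had 3 in place of 6 genes higher in CD45-, and 250 and 364 of all genes were called in place of 558 and 1663. With wells weighted equally, C1ra was also called higher in CD45-, which made 2. Of C1ra, C1s1, C3 and C4b, 2 were 4-fold higher in fibroblast-like than in endothelial-like wells of both batches. Where the overlapping sets of wells at 100 CPM of Col1a1 or of Pecam1 were compared, 1 was. With 1000 CPM of Col1a1 in place of 100, C1s1 passed 4-fold in both batches. Of the 9 genes, those at the high level in at least 10% of deep wells of both CD45- plates were 2 at 100 CPM, 4 at 10 CPM and 0 at 1000 CPM, and those with a read in at least 50% of CD45- wells were 0 thinned and 2 without thinning. CD45- wells high in both C1s1 and Serping1 numbered 19 and 18 at 100 CPM, 33 in batch 1 at 10 CPM, and 1 and 0 at 1000 CPM. Wells high in both C1ra and C1s1 numbered 3 and 7 at 100 CPM, 7 in batch 1 at 10 CPM, and 0 in both at 1000 CPM. Beyond the level itself the cause was not tested. No paired analysis was possible because the comparisons come from no test, beyond the gate ratios, which were taken within each batch, and well numbers are only names. With 1 plate per gate and batch, spread between animals is unknown, and reads per well limit what a 0 in C1ra, C3 or C4b can show.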
